A study of Mus musculus with 50 samples.

Results

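The genes of sterol and fatty acid synthesis that respond to the SREBP transcription factors were followed across the livers of a mouse backcross. A list of 37 genes was drawn up, 22 of the sterol arm and 15 of the fatty acid arm, and each was looked up by symbol in the expression table. 35 were found among the 12185 genes of the table, namely 21 sterol genes and 14 fatty acid genes, while Fdps and Pnpla3 were not analysed here. All 35 had a mean of at least 1 normalized CPM (reads of a gene relative to a scaled library size), the minimum for testing, as did 11436 genes in all.

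Cholesterol and fatty acids are both built from cytosolic acetyl-CoA. SREBP-2, encoded by Srebf2, is known as the main activator of the sterol genes, and SREBP-1c, encoded by Srebf1, as the main activator of fatty acid synthesis in liver, where insulin raises it and fasting lowers it. Both are held in the endoplasmic reticulum by INSIG proteins when sterols are plentiful, so that their activity is set by cleavage of the protein as well as by its mRNA. ChREBP, encoded by Mlxipl, activates many of the same fatty acid genes in response to carbohydrate.

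The mice were of an N2 generation and, per the labels, males. B6.A4 and B6.A6, which are C57BL/6J strains carrying chromosome 4 or 6 of A/J, were each crossed to C57BL/6J, and the F1 mice of the first cross were mated with those of the second. Each mouse therefore had 1 C57BL/6J copy of chromosomes 4 and 6 and 1 copy recombined with A/J, and the rest of its genome was C57BL/6J. None of the 35 genes lies on chromosome 4 or 6. The mice were fasted overnight and untreated otherwise. RNA came from the caudate lobe alone, so that a single fasted state of 1 liver lobe was measured. The labels call the animals adult F2 males, whereas the study's methods describe young N2 mice. The study scanned expression both with sex as a covariate and without it, so the sex given here rests on the labels alone.

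The 50 libraries form 1 group, with no treatment or genotype class in the labels. The study's own expression analysis covered fewer mice than these 50 libraries, and the sources used here do not say which libraries it used. Library numbers split into 28 libraries numbered 1 to 30 and 22 numbered 31 to 59, and the titles also carry an animal number, over a span of 182, whose order the labels do not explain. 2 animal numbers stand on 2 libraries each, which leaves 48 numbers. Reads counted on the genes of the table ran from 11965594 to 29976557 per library with a median of 13620584, so 3 reads were worth between 0.0951 and 0.259 normalized CPM. The 6 hepatocyte markers, Alb among them, summed to between 74550 and 114900 normalized CPM, against 234 to 414 for 7 Kupffer cell markers and 0.963 to 4.52 for the 2 of 7 lymphocyte markers in the table.

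The promoters of 5 members on which the results below turn are shown to place the letters that SREBP and its partner factors are known to bind. Each window is the 250 bases before the RefSeq start (build GRCm38.p6), read 5′ to 3′ along the gene, with capitals marking 3 motifs searched on both strands: TCACNCCAC, a form of the sterol regulatory element, CACGTG, the E-box, and CCAAT with its reverse complement ATTGG, the CCAAT box bound by NF-Y. The windows lie at chr13:119690101-119690350 on the plus strand for Hmgcs1, chr5:28071162-28071411 on the plus strand for Insig1, chr11:120824548-120824797 on the minus strand for Fasn, chr7:97417551-97417800 on the minus strand for Thrsp and chr9:77917115-77917364 on the plus strand for Elovl5.
Hmgcs1: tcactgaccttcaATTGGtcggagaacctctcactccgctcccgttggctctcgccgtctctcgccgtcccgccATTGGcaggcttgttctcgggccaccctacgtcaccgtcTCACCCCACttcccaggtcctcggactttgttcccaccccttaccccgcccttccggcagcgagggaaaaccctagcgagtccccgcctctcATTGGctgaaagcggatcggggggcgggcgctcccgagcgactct
Insig1: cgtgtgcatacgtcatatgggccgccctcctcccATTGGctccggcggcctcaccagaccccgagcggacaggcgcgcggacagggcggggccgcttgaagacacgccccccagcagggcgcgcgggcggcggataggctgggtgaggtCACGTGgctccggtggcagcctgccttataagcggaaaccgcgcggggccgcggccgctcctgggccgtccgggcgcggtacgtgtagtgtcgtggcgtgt
Fasn: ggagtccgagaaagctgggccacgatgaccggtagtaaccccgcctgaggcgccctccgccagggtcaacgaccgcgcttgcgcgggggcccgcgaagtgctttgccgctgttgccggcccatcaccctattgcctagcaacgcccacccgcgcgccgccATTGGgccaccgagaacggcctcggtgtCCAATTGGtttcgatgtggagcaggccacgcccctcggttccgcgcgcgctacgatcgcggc
Thrsp: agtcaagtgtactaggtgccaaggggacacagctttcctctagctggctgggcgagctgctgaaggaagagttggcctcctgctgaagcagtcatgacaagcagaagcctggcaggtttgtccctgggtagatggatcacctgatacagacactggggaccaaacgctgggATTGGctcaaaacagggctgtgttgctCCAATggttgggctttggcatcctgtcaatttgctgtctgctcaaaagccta
Elovl5: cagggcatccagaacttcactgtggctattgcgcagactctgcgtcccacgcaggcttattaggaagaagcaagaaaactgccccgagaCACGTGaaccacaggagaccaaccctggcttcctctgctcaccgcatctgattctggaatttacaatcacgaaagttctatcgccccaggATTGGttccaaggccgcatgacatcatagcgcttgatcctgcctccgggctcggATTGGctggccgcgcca

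The Hmgcs1 window holds 1 sterol regulatory element, TCACCCCAC, which begins 137 bases before the start. Those of Insig1 and Elovl5 each hold an E-box, at 101 and 161 bases before the start. All 5 hold a CCAAT box, and in Fasn a CCAAT and an ATTGG overlap within the run CCAATTGG. RefSeq promoters of 300 bases (250 before and 50 after the start) were at hand for 31 of the 37 listed genes, Pnpla3 included. A CCAAT box was found in 26 of the 31 (83.9%), against 41.1% of 27025 genes with promoters. An E-box was found in 6 (19.4%, against 8.09%) and the sterol element letters in 2 (6.45%, against 1.44%), Hmgcs1 and an inner promoter of Mlxipl. These are matches of letters in 1 window and not measured sites.

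Within the sterol arm, Sqle, Mvd and Idi1 were the least abundant. Sqle, squalene epoxidase (chr15:59315077-59331192), ran from 0.226 through a median of 0.985 to 3.102 normalized CPM, with a mean of 1.09 ± 0.592 (SD, n = 50). Its reads ranged from 3 to 56 per library, so the low end lies near the floor of 3 reads. Mvd, mevalonate diphosphate decarboxylase, averaged 1.16 ± 0.36 (SD, n = 50) and Idi1, isopentenyl diphosphate isomerase, 1.60 ± 0.631 (SD, n = 50).

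Hmgcs1, HMG-CoA synthase at the entry to the pathway (chr13:119690379-119708260), stood far higher, at 28.4 to 64.1 normalized CPM with a median of 39.7. Fdft1, squalene synthase, averaged 37.1 ± 6.69 (SD, n = 50). The late sterol enzymes Sc5d, the lathosterol desaturase, and Ebp, the sterol isomerase, were the most abundant of the arm per library, at 130.3 ± 11.9 and 126.2 ± 14.1 normalized CPM (SD, n = 50). Per kb of exon, which allows levels to be compared between genes, Ebp led the sterol arm with 54.6 and Sqle was lowest with 0.197 normalized CPM per kb.

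The fatty acid arm was more abundant. Scd1, the stearoyl-CoA desaturase (chr19:44394455-44407879), had the highest level of all members per kb, 166 normalized CPM per kb, and ran from 263 through 773 to 1495 normalized CPM. Elovl5, an elongase of polyunsaturated fatty acids, followed with 101 per kb and Fads2, the delta-6 desaturase, with 70.3 per kb. Fasn, fatty acid synthase, stood at 3.79 per kb and ranged from 21.6 through 38.2 to 73.4 normalized CPM. Part of the Scd1 transcript, 8.14% of its 31-base stretches, is shared with Scd3 and Scd2, whose reads cannot be told apart there. In whole liver, fewer cells of a type and less RNA per cell cannot be told apart.

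**Figure D1:**
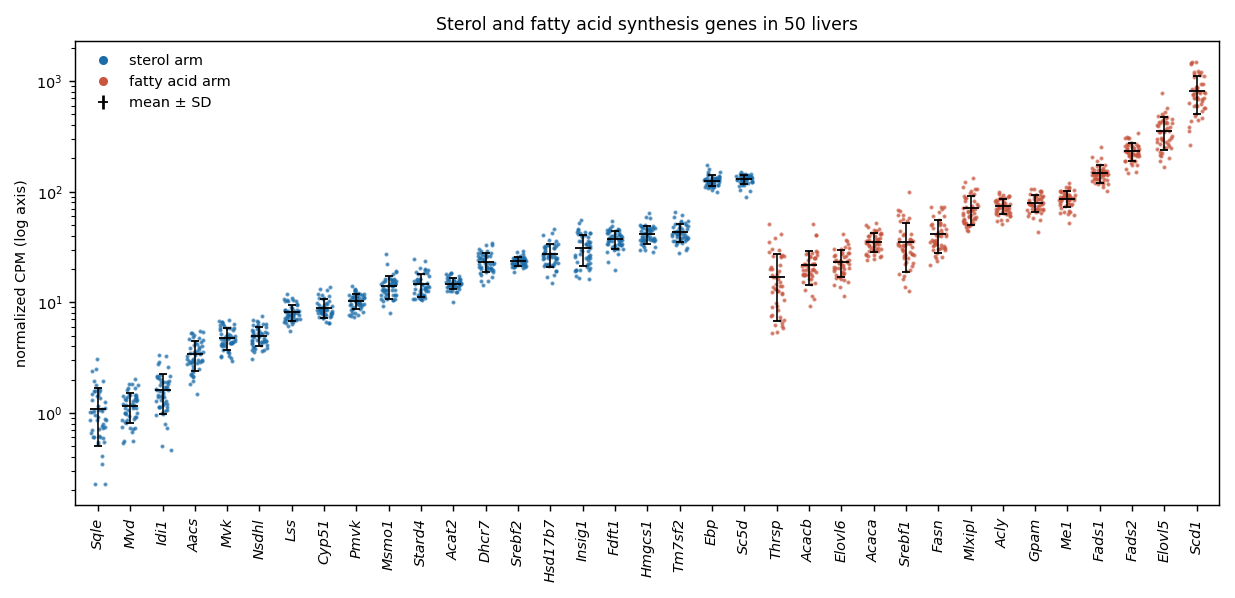
Normalized CPM of each of the 35 genes on a log axis, 1 point per library and bars for the mean ± SD over 50 libraries, with the sterol arm on the left and the fatty acid arm on the right. Sqle sits lowest, near 1, and Scd1 highest, at 263 to 1495, while Thrsp and Sqle spread most widely.

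How much a gene varied from mouse to mouse differed widely within each arm. The coefficient of variation (SD over mean) was 20.2% for the median member, 19.8% in the sterol arm and 28.4% in the fatty acid arm, against 16.5% for the median gene tested. Thrsp, the thyroid hormone responsive Spot 14 protein of lipogenic tissue (chr7:97412938-97417730), varied most at 60.5%. It ran from 5.23 in library 32 through a median of 14 to 51.5 normalized CPM in library 30.

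Srebf1 varied by 46.7%, from 12.6 in library 10 to 98.5 in library 46. Scd1 varied by 37.5% and Acacb, the mitochondrial acetyl-CoA carboxylase, by 34.1%. Counting error made 0.0594% to 2.67% of the variance of these 4 genes, so nearly all of their spread lay between libraries and not in read sampling. Acly, ATP citrate lyase, and Me1, malic enzyme, were the steadiest of the arm at 15.7% and 16.2%.

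In the sterol arm Sqle varied most, at 54.2%, followed by Idi1 at 39.5%, Insig1 at 31.7% and Mvd at 30.9%. Insig1, which retains SREBP in the endoplasmic reticulum (chr5:28071363-28078662), ran from 16.1 through 29.5 to 55.96 normalized CPM. Counting error made 2.17% of the variance of Insig1 but 60.9% of that of Mvd, whose spread is therefore mostly read sampling. Srebf2 was the steadiest member, at 8.92%, with values from 18.7 to 28.9, and Sc5d came next at 9.17%.

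A few livers stood out across many sterol genes at once. Library 43 was among the 10 highest libraries for 15 of the 21 sterol members and library 31 for 14, and neither was among the 10 lowest for any of them. Library 43 held the highest value of Sqle (3.102), Msmo1 (27.6), Insig1 (55.96), Stard4 (24.7) and Srebf2 (28.9). At the other end, library 9 was among the 10 lowest for 10 sterol members and among the 10 highest for 0. In the fatty acid arm, library 30 was among the 10 highest for 9 of 14 members and library 59 for 8.

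The labels offer no condition, and animal number is 1 of the 2 labels that differ between mice. Over all 50 libraries its r with library number was 0.337, but within each set library number rises almost in step with it. Within a set, animal number and library order therefore cannot be told apart. Thrsp, Fasn, both acetyl-CoA carboxylase genes and the elongase genes Elovl5 and Elovl6 were higher, and Insig1 and Mlxipl lower, at higher animal numbers. In a limma fit of log2(value + 0.5) for all 11436 genes, with a threshold of 0.05 on the Benjamini-Hochberg adjusted p, 7 of 35 members rose (background 7.48% of all genes rising) and 3 fell (background 6.75% falling). 6 of the 7 that rose were of the fatty acid arm, which has 14 members. The coefficients below are log2 changes per 100 animal numbers.

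Thrsp ran from 5.23 through 9.60 to 13.9 normalized CPM in the 10 libraries with the lowest animal numbers and from 6.23 through 24.1 to 51.5 in the 10 with the highest. The high end of the second range lies far above the first, but the ranges overlap at the bottom. Over all 50 libraries Thrsp rose by 0.94 ± 0.18 (SE, limma adjusted p = 0.000442), or 1.92-fold per 100 numbers. Fasn ran from 21.6 through 31.97 to 43.7 at the low end and from 32.3 through 50.8 to 73.4 at the high end. All 10 libraries at the high end lay above the median of the low end, and the slope was 0.48 ± 0.10 (SE, limma adjusted p = 0.000983).

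Both acetyl-CoA carboxylase genes rose as well. Acaca, whose cytosolic enzyme makes the malonyl-CoA that FASN uses, rose by 0.26 ± 0.07 (SE, limma adjusted p = 0.00653) and Acacb by 0.40 ± 0.11 (SE, limma adjusted p = 0.00984), and 33.4% of the 31-base stretches of Acaca are shared with other annotated genes. The elongases Elovl5 and Elovl6 rose by 0.35 ± 0.12 (SE) and 0.28 ± 0.10 (SE), with limma adjusted p = 0.0312 and 0.0381. These were the least stable calls: with 1 library left out at a time the adjusted p reached 0.0644 for Elovl5 (lost without library 4, 30, 33 or 59, coefficient at least 0.32) and 0.0861 for Elovl6 (lost without library 4, 25, 28, 29, 30, 33 or 59, coefficient at least 0.24).

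Dhcr7, the last enzyme of the Kandutsch-Russell route to cholesterol (chr7:143823145-143848410), was the sterol gene that rose, by 0.26 ± 0.07 (SE, limma adjusted p = 0.00721). Insig1 moved the other way. It ran from 26.4 through 39.6 to 52.1 normalized CPM in the 10 libraries of lowest animal number and from 16.1 through 21.1 to 32.3 in the 10 of highest, so that the ranges overlap only between 26.4 and 32.3. Its slope was -0.46 ± 0.11 (SE, limma adjusted p = 0.00231).

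Acat2, the cytosolic thiolase that starts sterol synthesis, fell by 0.15 ± 0.04 (SE, limma adjusted p = 0.0111), with 43.8% of its 31-base stretches shared with Acat3. Mlxipl fell by 0.33 ± 0.10 (SE, limma adjusted p = 0.0166), and its values at the 2 ends were 44.1 to 122.7 and 44.6 to 70.1 normalized CPM. The remaining 25 members did not pass the threshold, among them Srebf1 (0.29 ± 0.16, SE), Scd1 (-0.10 ± 0.15, SE) and Sqle (-0.09 ± 0.14, SE).

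**Figure D2:**
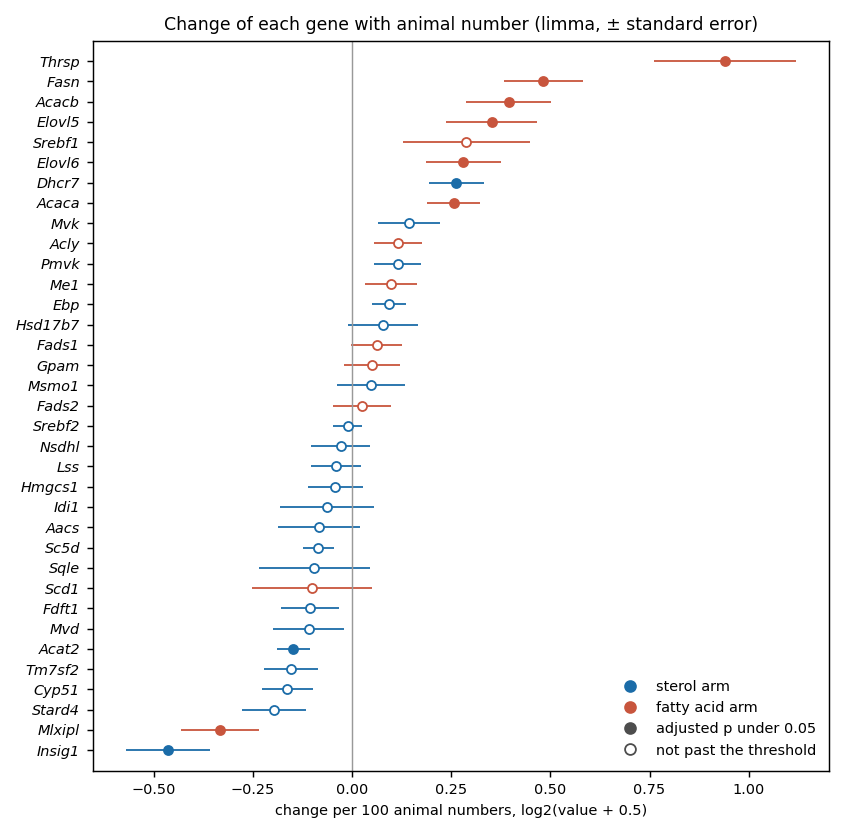
Log2 change per 100 animal numbers for each of the 35 genes, with its limma standard error over 50 libraries. Filled points passed the threshold: 7 genes on the right, led by Thrsp at 0.94, and 3 on the left, led by Insig1 at -0.46.

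The slopes were also fitted within each set of library numbers, a choice made once the values had been seen. The 28 libraries numbered 1 to 30 gave the same sign as all 50 for each of the 10 members, and so did the 22 numbered 31 to 59. Library order runs with animal number within each set, so these slopes do not separate the 2 labels. In the first set 5 members rose (background 4.32% rising) and 2 fell (background 5.11% falling), 6 of them among these 10. In the second Fasn rose and 0 members fell (background 0.131% rising and 0.0962% falling). For Fasn the coefficients were 0.41 ± 0.14 and 0.67 ± 0.12 (SE). Mlxipl had -0.68 ± 0.11 and -0.11 ± 0.10 (SE), a difference between the sets that was not tested.

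Other measures moved with animal number beside these genes. Of 6 stellate cell markers, 3 rose (Dcn, Col3a1 and Colec11), and their sum was 91.7 to 182 normalized CPM in the 10 libraries of lowest number and 135 to 210 in the 10 of highest. The 6 hepatocyte markers summed to 79300 to 93620 and 97590 to 112800, with Alb and Cps1 rising. Only 3 of the 6 had coefficients above 0, so the sum does not stand for each marker. Car3, the 1 of 6 adipocyte markers in the table, fell. It ran from 203 to 546 at the low end and from 72.4 to 214 at the high end. Adipoq, Plin1, Cfd, Lep and Cidea were not analysed here, so Car3 alone does not show whether adipocyte RNA changed. Of 3 erythrocyte markers Hba-a1 and Hbb-bs rose and Alas2 fell, and of 6 endothelial markers Lyve1 rose (0.32 ± 0.11, SE). Their part in the slopes of the synthesis genes was not tested.

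**Figure D3:**
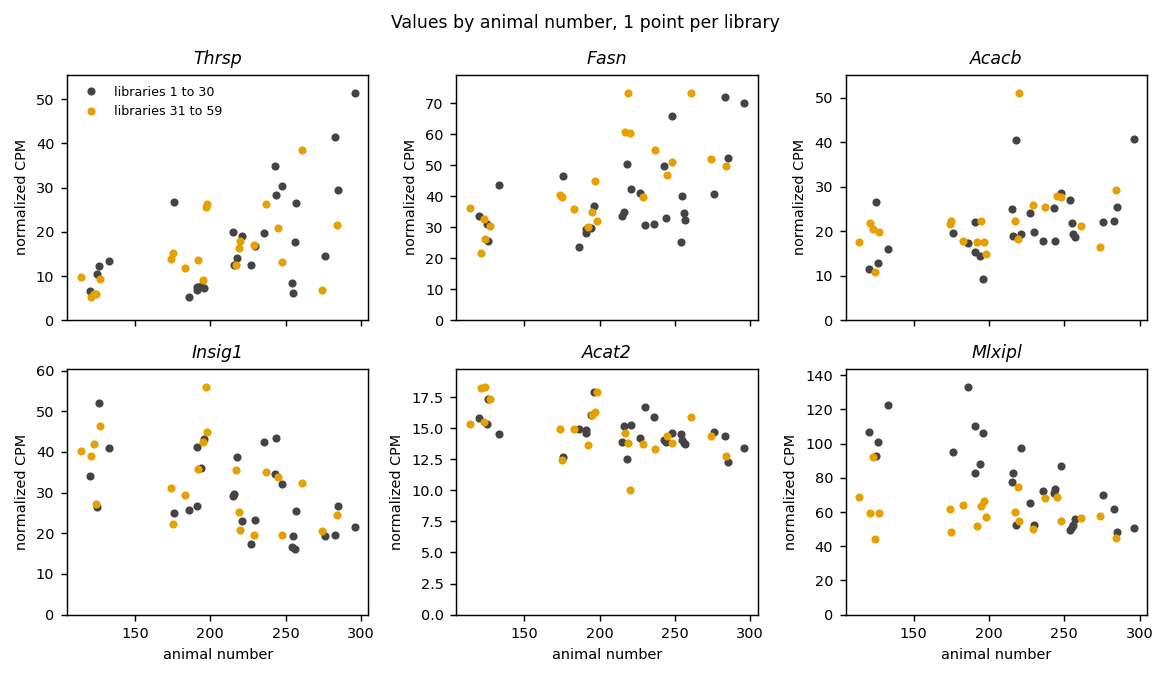
Normalized CPM of 6 genes against animal number, 1 point per library, colored by set of library numbers. Thrsp, Fasn and Acacb are higher to the right and Insig1 and Acat2 lower, while Mlxipl is above 100 only in libraries 1 to 30.

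Other gene lists were counted along the same axis, where 7.48% of all genes rose and 6.75% fell. Of 52 other lipid genes tested, 8 rose and 4 fell. Those that rose included Pgd, an NADPH source of the pentose phosphate pathway (0.31 ± 0.04, SE, limma adjusted p = 1.63e-05), Insig2, a second INSIG gene (0.41 ± 0.09, SE), and Cidec, a lipid droplet protein (1.04 ± 0.23, SE). Elovl3 (-1.09 ± 0.32, SE) and Plin4 (-0.66 ± 0.20, SE) were among those that fell. Of 26 genes known to respond to fasting, 6 rose and 0 fell, including Cyp4a14, a fatty acid omega-hydroxylase (0.47 ± 0.09, SE).

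Between the sets of library numbers few members differed. Hmgcs1 and Acly were higher in libraries 31 to 59 than in 1 to 30 (2 of 35 members, background 7.3% rising) and Mlxipl was lower (1 of 35, background 6.47% falling). Mlxipl averaged 79.0 ± 23.97 normalized CPM in the first set (SD, n = 28) and 60.4 ± 10.7 in the second (SD, n = 22), a log2 difference of -0.34 ± 0.10 (SE, limma adjusted p = 0.0162). Its highest values, up to 133.2 in library 9, all lay in the first set, and the ranges overlap from 48.3 to 92.2.

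Hmgcs1 averaged 38.9 ± 6.22 normalized CPM in the first set and 44.7 ± 8.02 in the second (SD, n = 28 and 22), a log2 difference of 0.19 ± 0.07 (SE, limma adjusted p = 0.0406). Acly averaged 70.4 ± 11.97 and 78.7 ± 9.58 (SD), a difference of 0.17 ± 0.06 (SE, limma adjusted p = 0.0469). Both calls changed with single libraries: Acly kept its call in 21 of the 50 fits with 1 library left out, where its adjusted p reached 0.0758, and Hmgcs1 in 33, where it reached 0.0701. With counted reads as a covariate the coefficients were 0.179 for Hmgcs1 and 0.169 for Acly, and neither passed. Hmgcs1 also lost its call without the libraries that share an animal number (0.173, adjusted p = 0.0835), and Acly in edgeR (0.163, adjusted p = 0.0585). Among markers, Cps1 of hepatocytes (0.40 ± 0.09, SE) and Kdr of endothelial cells (0.21 ± 0.06, SE) were higher in the second set. Colec11 of stellate cells (-0.26 ± 0.08, SE) and C1qa of Kupffer cells (-0.16 ± 0.06, SE) were lower. Coefficients were above 0 for 5 of 6 hepatocyte, 5 of 6 endothelial, 1 of 6 stellate cell and 1 of 7 Kupffer cell markers. Their part in these differences was not tested.

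Because SREBP-1c drives fatty acid synthesis, each gene was set against Srebf1 mRNA. Fasn, Thrsp, Acly and Dhcr7 were higher in livers with more Srebf1, and Fads2 was lower. These 4 of 34 members (background 6.56% rising) and 1 of 34 (background 6.83% falling) passed the limma threshold over 11435 genes. All regulator fits use the same 50 libraries. The library with the most Srebf1, 98.5 normalized CPM, had 73.2 of Fasn, and the one with the least, 12.6, had 28.04.

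Per doubling of Srebf1, Fasn rose by 0.41 ± 0.08 (SE, limma adjusted p = 0.000584) and Thrsp by 0.53 ± 0.17 (SE, limma adjusted p = 0.0293). Acly rose by 0.16 ± 0.05 (SE, limma adjusted p = 0.0216) and Dhcr7 by 0.20 ± 0.06 (SE, limma adjusted p = 0.0164). Fads2 (chr19:10062765-10101746), whose enzyme makes polyunsaturated fatty acids, fell by 0.23 ± 0.05 (SE, limma adjusted p = 0.002). The desaturase Scd1 (0.29 ± 0.12, SE) did not pass, nor did Acaca (0.11 ± 0.06, SE) or Gpam, the first acyltransferase of glycerolipid synthesis (0.01 ± 0.06, SE).

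With animal number in the fit, Fasn (0.33) and Fads2 (-0.25) still passed, while Thrsp (0.36, adjusted p = 0.108), Acly (0.14, adjusted p = 0.0516) and Dhcr7 (0.16, adjusted p = 0.0599) did not. Without library 56 Acly had an adjusted p of 0.0506, and Thrsp reached 0.0652 over the libraries left out (lost without library 9, 10, 28, 32 or 56, coefficient at least 0.47). Thrsp had 0.49 (adjusted p = 0.0668) without the libraries that share an animal number. No member passed within libraries 1 to 30 (background 0.647% rising and 0.673% falling) or within 31 to 59 (background 2.43% rising and 2.06% falling), yet the coefficients kept their sign: 0.45 ± 0.12 and 0.37 ± 0.11 (SE) for Fasn, and -0.24 ± 0.07 and -0.22 ± 0.08 (SE) for Fads2. Of 26 fasting genes 0 rose and 5 fell with Srebf1 (background 6.56% rising and 6.83% falling), among them Igfbp1 (-0.49 ± 0.17, SE) and Pck1, the gluconeogenic PEPCK (-0.19 ± 0.06, SE). Among markers, Kdr, 1 of 6 of endothelial cells (0.20 ± 0.04, SE), and Sox9, 1 of 4 tested of cholangiocytes (0.37 ± 0.09, SE), rose with Srebf1. Coefficients were above 0 for 5 of the 6 and for 2 of the 4. Tat of hepatocytes, also a fasting gene, fell (-0.29 ± 0.09, SE), while 4 of the 6 hepatocyte markers had coefficients above 0. Their part in the slopes of the synthesis genes was not tested.

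Livers with more Mlxipl mRNA had less of 9 synthesis genes. These 9 of 34 members fell per doubling of Mlxipl (background 8.99% falling) and 0 rose (background 10.2% rising) in the limma fit. The 9 were Elovl5 (-0.56 ± 0.14), Acacb (-0.46 ± 0.14), Elovl6 (-0.41 ± 0.12) and Acaca (-0.29 ± 0.09) of the fatty acid arm, and Dhcr7 (-0.35 ± 0.09), Mvk, mevalonate kinase (-0.33 ± 0.09), Hsd17b7 (-0.33 ± 0.10), Pmvk (-0.21 ± 0.07) and Ebp (-0.16 ± 0.05) of the sterol arm, each with its SE. The limma adjusted p ran from 0.00295 for Dhcr7 to 0.0385 for Pmvk. Fasn (-0.24 ± 0.15, SE) and Scd1 (-0.03 ± 0.19, SE) did not pass.

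The count of 0 rising members changed with the processing. Insig1 (0.40 ± 0.15, SE, limma adjusted p = 0.0505), Stard4, a cholesterol carrier (0.25 ± 0.10, SE, limma adjusted p = 0.0775), and Aacs (0.30 ± 0.13, SE, limma adjusted p = 0.0924) lay near the threshold. With library set as a covariate these 3 passed as rising, and they did so without library 3 as well.

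Within libraries 1 to 30, 12 members fell (background 13.9% falling) and 2 rose (background 14.8% rising) with Mlxipl, and within libraries 31 to 59 none passed (background 0.00875% falling and 0.0% rising). Of the fatty acid genes, Elovl5 had -0.80 ± 0.16 in the first set and -0.80 ± 0.27 in the second, Elovl6 -0.47 ± 0.17 and -0.59 ± 0.20, Acaca -0.18 ± 0.09 and -0.49 ± 0.23, and Acacb -0.65 ± 0.15 and -0.03 ± 0.36 (SE). Dhcr7 had -0.46 ± 0.10 and -0.36 ± 0.21 (SE), while Ebp had -0.27 ± 0.07 (SE) and a slope near 0. Mvk, Pmvk and Hsd17b7 were less steep in the second set, at -0.13 ± 0.24, -0.17 ± 0.17 and -0.07 ± 0.27 (SE). So in the second set calls were lost for all 9, but the slopes of Elovl5, Elovl6 and Acaca were at least as steep there.

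With animal number as a covariate Mvk (-0.31) and Hsd17b7 (-0.35) passed, while the other 7 lost their calls. Their coefficients ran from -0.45 for Elovl5 (adjusted p = 0.0553) to -0.14 for Ebp (adjusted p = 0.124), and the highest adjusted p was 0.208, for Acacb (-0.30). With 1 library left out, Hsd17b7 had an adjusted p of 0.0538 without library 6 and Ebp of 0.0609 without library 9, and Pmvk lost its call in 12 of the 50 fits, reaching 0.121. Their coefficients over these fits ran from -0.37 to -0.30 for Hsd17b7, from -0.18 to -0.14 for Ebp and from -0.23 to -0.17 for Pmvk. Pmvk had -0.21 (adjusted p = 0.0626) without the libraries that share an animal number. Of 26 fasting genes 0 rose and 8 fell with Mlxipl, and of 19 clock genes 5 rose and 2 fell, where 10.2% of all genes rose and 8.99% fell.

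Markers moved with Mlxipl as well. Of 6 hepatocyte markers Cps1 (-0.51 ± 0.11), Alb (-0.26 ± 0.08) and Ass1 (-0.29 ± 0.08) fell, each with its SE, and of 3 erythrocyte markers Hba-a1 fell. Car3, the 1 adipocyte marker in the table, rose by 0.81 ± 0.30 (SE, limma adjusted p = 0.0457), which alone does not show a change in adipocyte RNA. None of the Kupffer cell, endothelial, stellate cell or cholangiocyte markers tested passed. Their part in the slopes of the synthesis genes was not tested.

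**Figure D4:**
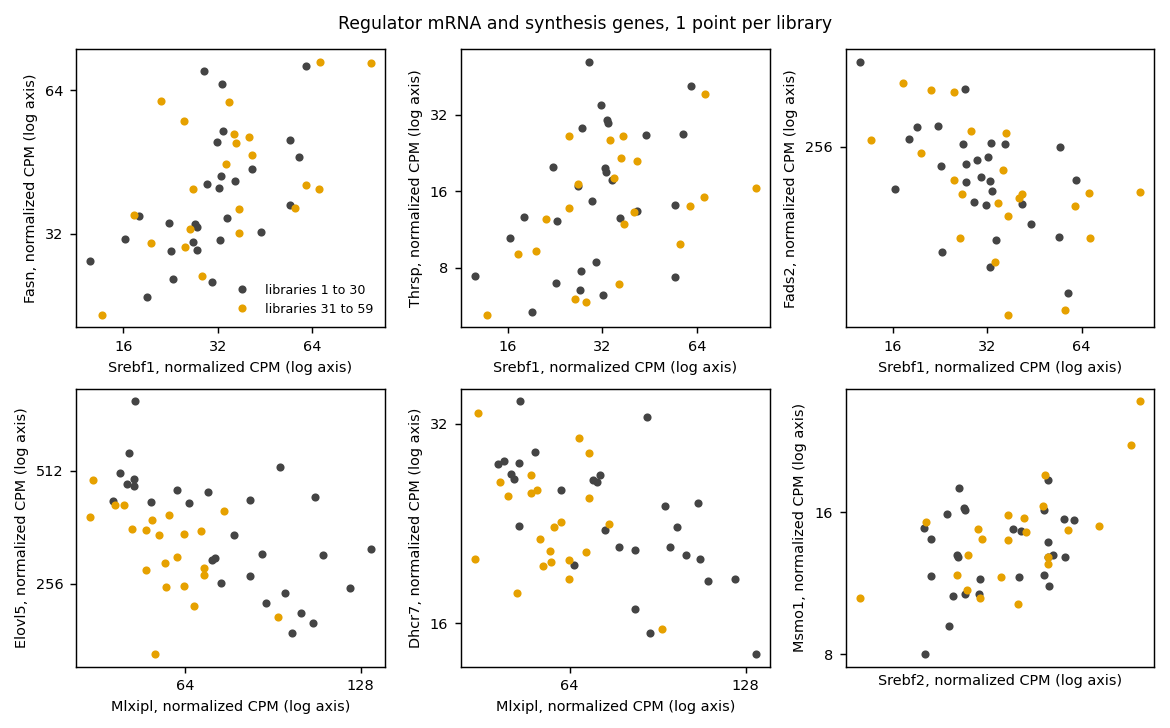
Regulator mRNA on the horizontal axis and a synthesis gene on the vertical axis, both normalized CPM on log axes, 1 point per library, colored by set of library numbers. Fasn and Thrsp are higher and Fads2 lower with Srebf1, Elovl5 and Dhcr7 are lower with Mlxipl, and the 2 libraries highest in Srebf2 (43 and 31) are also the 2 highest in Msmo1.

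Srebf2 mRNA, the steadiest of the 3 regulators, was set against the same genes. In the limma fit 0 of 34 members passed in either direction, as did 0 of 11435 genes (background 0.0% rising and 0.0% falling). At an unadjusted p under 0.05 there were 547 genes and 5 members, all of the sterol arm: Msmo1, Idi1, Sqle, Dhcr7 and Cyp51. Msmo1, the sterol C4 methyl oxidase, had a coefficient of 1.27 ± 0.30 per doubling (SE, p = 8.18e-05, limma adjusted p = 0.468), and Idi1 1.56 ± 0.43 (SE, p = 0.000714, limma adjusted p = 0.802). Srebf2 itself spanned only 1.55-fold from the lowest to the highest library, so a doubling lies outside the range measured. Counting error made 36.4% of its variance, against 0.882% for Srebf1 and 1.06% for Mlxipl. How far this weakened the Srebf2 slopes was not tested.

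How the members moved together across livers was described by pairwise Pearson r on log2(value + 0.5) over the 50 libraries, which share scaling and depth; no test was made. The median r was 0.143 over 210 pairs within the sterol arm, 0.121 over 91 pairs within the fatty acid arm and -0.034 over 294 pairs between the arms, against -0.002 over all pairs of genes tested. An r of at least 0.5 was found in 3.81%, 9.89% and 1.36% of these pairs and in 2.17% of all pairs. Within libraries 31 to 59 the shares were 13.8%, 14.3% and 1.36%, against 4.02% of all pairs, and within libraries 1 to 30 they were 4.76%, 12.1% and 4.08%, against 3.31%. In both arms most pairs thus lay below an r of 0.5.

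The strongest positive pairs, picked after their values were seen, lay among the elongases and desaturases: 0.721 for Elovl5 with Fads1, the delta-5 desaturase of polyunsaturated fatty acids, and 0.672 for Elovl5 with Elovl6, the elongase of saturated and monounsaturated fatty acids. In the sterol arm Msmo1 and Cyp51, enzymes of sterol demethylation, were closest to the mean of the other members, at 0.743 and 0.662. Aacs, acetoacetyl-CoA synthetase, and Hsd17b7 were not, at -0.184 and -0.182. Between the arms the lowest were -0.694 for Acat2 with Acacb and -0.653 for Insig1 with Elovl6, and these held within libraries 1 to 30 (-0.688 and -0.657) and 31 to 59 (-0.754 and -0.737).

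Over all libraries Mlxipl had an r of -0.553 with the mean of the 13 other fatty acid members. None of the 13 pairs was positive over all libraries, but this did not hold within the sets of library numbers. In the second set Mlxipl was positive with Me1 (0.394), Fasn (0.112), Gpam (0.074) and Srebf1 (0.049), and negative with the other members. In the first set only its pair with Scd1 (0.071) was positive. Over all libraries Srebf1 with Fads2 was -0.528, while Fads2 was positive with Elovl5 and Fads1. Elovl6 was positive with Hsd17b7 and negative with Insig1, as Elovl5 was.

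**Figure D5:**
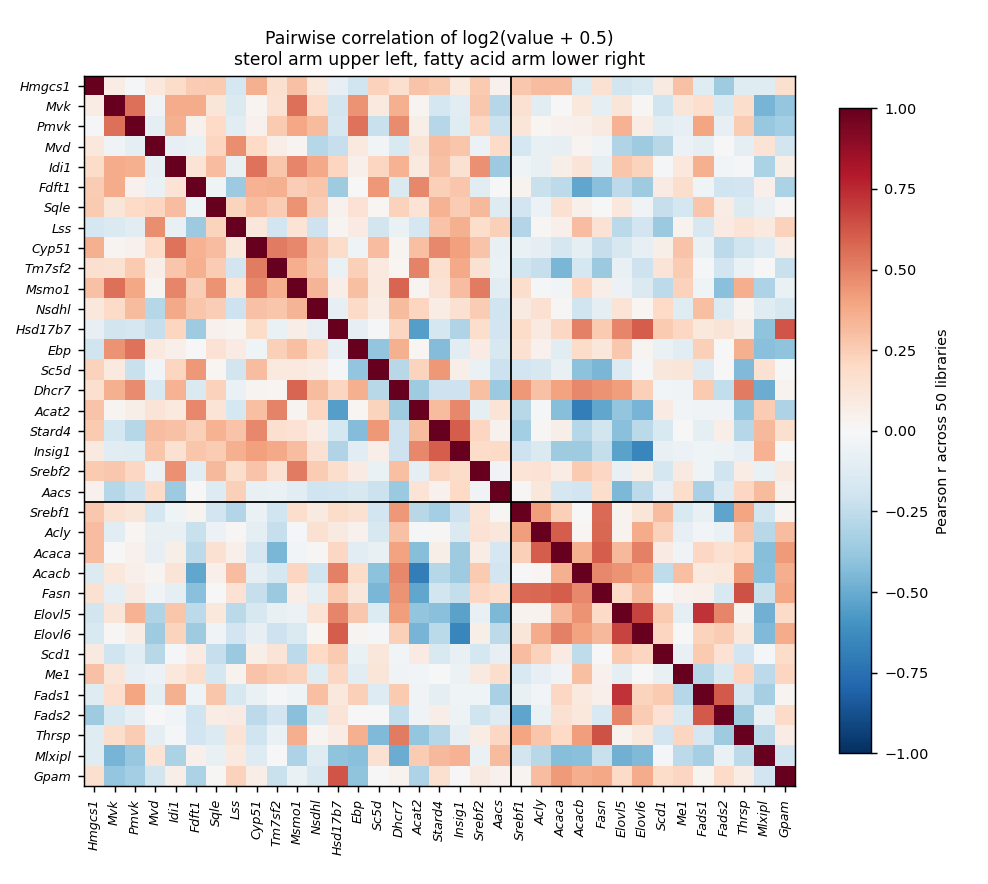
Pearson r of each pair of the 35 genes over 50 libraries, from blue (-1) through white (0) to red (1), with black lines between the sterol arm and the fatty acid arm. Red patches join Elovl5, Elovl6 and Fads1, and Acly, Acaca and Fasn, while Acat2 and Insig1 are blue against much of the fatty acid arm.

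8 pairs were tested by 2-sided permutation with 100000 resamples and Benjamini-Hochberg adjustment over the 8. Fasn passed with its regulator and with both of its partners. Pearson r was 0.564 for Srebf1 with Fasn (p = 1e-05, the smallest these permutations can give, adjusted 4e-05; Spearman rho 0.564, p = 3e-05, adjusted 8e-05). It was 0.575 for Fasn with Acly, which supplies its acetyl-CoA (p = 5e-05, adjusted 0.000133; rho 0.59, p = 2e-05, adjusted 8e-05), and 0.638 for Fasn with Thrsp (p = 1e-05, adjusted 4e-05; rho 0.587, p = 3e-05, adjusted 8e-05). Without the 2 libraries farthest from the median of the first gene the r values were 0.494, 0.514 and 0.63. Within libraries 1 to 30 they were 0.563, 0.639 and 0.706, and within 31 to 59 they were 0.547, 0.461 and 0.613, where Fasn with Acly had a permutation p of 0.0511 after adjustment. By Spearman's rho none of the 3 pairs passed within 31 to 59, with adjusted permutation p of 0.114 for Srebf1 with Fasn and for Fasn with Acly and 0.0626 for Fasn with Thrsp.

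The sterol pairs were weaker. Pearson r was 0.308 for Sqle with Idi1 (permutation p = 0.0297, adjusted 0.0476; rho 0.253, p = 0.0754, adjusted 0.151) and 0.327 for Srebf2 with Sqle (p = 0.0196, adjusted 0.0391; rho 0.182, p = 0.205, adjusted 0.274). Without the 2 farthest libraries they were 0.16 and 0.128 and no longer passed, so both relations rest on those libraries. Srebf2 with Sqle also did not pass without the libraries that share an animal number (0.266, permutation p adjusted 0.0983). They were 0.125 and 0.068 within libraries 1 to 30 and 0.555 and 0.538 within 31 to 59.

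Sqle with Insig1 did not pass (r = 0.254, permutation p = 0.0745, adjusted 0.0993; rho 0.202, p = 0.158, adjusted 0.252; 0.178 without the 2 farthest libraries; 0.185 and 0.328 within the sets). Scd1 with Elovl6 did not pass either (r = 0.211, permutation p = 0.141, adjusted 0.161; rho 0.147, p = 0.307, adjusted 0.351; 0.044 without the 2 farthest; 0.183 and 0.29 within the sets). Between the arms Sqle with Fasn had r = -0.002 (permutation p = 0.99, adjusted 0.99; rho -0.027, p = 0.855, adjusted 0.855; -0.04 without the 2 farthest; -0.033 and 0.014 within the sets).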

How the data were processed

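Liver RNA of 50 libraries was sequenced by the authors as stranded mRNA libraries. Per the labels and the study's methods, reads were trimmed, aligned with HISAT2 to GRCm38.p5, counted per gene with HTSeq 0.11.1, filtered for low counts and normalized with edgeR. What the authors deposited is a normalized signal per gene, in CPM of scaled library sizes. Column sums of 886171 to 1120647 show that it is not plain CPM, for which the tests had been planned, and the same log2-scale tests were kept. Dividing by the value of 1 read (0.0317 to 0.0864) gave whole reads for 100% of values within 0.01, and floors of 3 reads cover counting error only. Positions and exon lengths come from GENCODE M21.

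The members and lists were chosen with earlier results of these data known. Every member was counted. Named with statistics were those past the threshold (at most 8 per fit and direction), the 4 most and 2 least variable of each arm and the 3 regulators. Pmvk, the ninth falling with Mlxipl, and other genes are named as examples chosen after their values were seen. Tests used limma 3.58.1 (trended, 2-sided) in R 4.3.3 on log2(value + 0.5), for genes averaging at least 1, without covariates, and were tested on simulated data. edgeR 4.0.16 (quasi-likelihood) and DESeq2 1.42.0 were run on the whole reads for library set and animal number. Pairs were tested by permutations drawn with numpy 2.4.6. Alternatives covered pseudocount, filter, scaling, covariates, libraries sharing an animal number and each library left out. Each of the 50 libraries was taken as 1 sample, although they carry 48 animal numbers and the labels do not say whether those sharing a number are 1 mouse; p-values measure the spread between these libraries. Genotypes were not used here. Some genes are left unreported.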

Additional observations from a re-analysis of the deposited data

How the results depend on the processing

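Animal number kept 7 rising and 3 falling members with edgeR, DESeq2, both other pseudocounts, both other filters, median-ratio scaling, and adjustment for library set or counted reads. Adjusting for the share held by the 10 highest genes left 5 rising, without Elovl5 and Elovl6. Leaving out 1 library gave 5 to 7 rising and 3 to 5 falling (5 without library 3), and libraries 31 to 59 alone gave 1 and 0.

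For library set, the rising count was 0 when adjusted for counted reads, 4 when adjusted for animal number, 4 with DESeq2 and 0 to 5 with 1 library left out (0 without library 7, 5 without library 44). Members rising with Srebf1 numbered 1 with animal number as a covariate, 0 within either set of libraries and 2 to 4 with 1 library left out (2 without library 56). Those falling numbered 2 with library set, the first principal component or Srebf2 as a covariate, 0 within either set and 1 to 2 with 1 left out. Members falling with Mlxipl numbered 2 with animal number as a covariate, 0 in libraries 31 to 59 and 7 to 10 with 1 left out. Those rising numbered 1 with a mean of at least 5, 1 with median-ratio scaling (Insig1), 3 with library set as a covariate (Stard4, Aacs and Insig1), 2 in libraries 1 to 30 and 0 to 3 with 1 left out. The causes were not tested. No alternative gave a member for Srebf2, and no called member changed sign.

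Among pairs, Sqle with Insig1 passed on untransformed values (0.364). Sqle with Idi1 was 0.125 in libraries 1 to 30 and 0.16 without the 2 farthest. Srebf2 with Sqle was 0.068, 0.128 and, without the libraries sharing an animal number, 0.266. Fasn with Acly was 0.461 in libraries 31 to 59. The median r within the sterol arm was 0.066 in libraries 1 to 30, 0.203 in 31 to 59 and 0.168 after the first principal component. Within the fatty acid arm it was 0.18 in 31 to 59, and between the arms 0.011 and -0.098. No paired analysis was run. Only 2 animal numbers stand on 2 libraries each, and the labels do not say whether those are 1 mouse. Sqle, Mvd and Idi1 had the fewest reads, 3 to 57 per library, and by the share of variance that is counting error depth limits Mvd (60.9%) and Acat2 (36.6%) most.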

Other observations

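Genes outside the list were ranked by Pearson r with the mean profile of each arm over the 50 libraries, as a description with no test. Nearest to the fatty acid arm were Lclat1, an acyltransferase of phospholipid remodeling (0.84), Gpd2, the mitochondrial glycerol-3-phosphate dehydrogenase (0.771), Pank1, a pantothenate kinase at the first step of coenzyme A synthesis (0.769), Cpd (0.761) and Csnk1a1 (0.744). Lclat1 averaged 42.9 ± 5.06 normalized CPM (SD, n = 50). Nearest to the sterol arm, passing over genes whose values are not reported here, were Rab40c (0.503), Ptrh2 (0.498), Gamt, which completes creatine synthesis (0.486), Selenbp1 (0.484) and Acss2, the cytosolic acetyl-CoA synthetase (0.482). The 2 arm profiles had an r of -0.181 with each other.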
